A study of Mus musculus with 18 samples.

Results

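Accessible chromatin of haematopoietic stem cells (HSC) taken after repeated 5-fluorouracil was compared with that of wild-type progenitors, the cells labelled HPC. The 2 groups hold 8 of the 18 samples of the study, 4 on each side. The 5-fluorouracil HSC came from wild-type mice of 16 weeks that had received the drug at 150 mg/kg in 3 doses given 3 weeks apart. The HPC came from wild-type mice of 8 weeks with no treatment listed. Age, drug and cell type therefore all differ between the 2 groups and cannot be told apart. Of the other 4 groups, vehicle HSC came from wild-type mice of 16 weeks given PBS 3 times on the same schedule. Wild-type HSC, and HSC and HPC that lacked Kmt2c through a floxed allele and Vav-Cre, a driver active in blood cells, came from mice of 8 weeks with no treatment listed. The design text places all populations in a Kmt2c conditional knockout colony, and whether mice labelled wild type carried the floxed allele without Cre is not stated. The sort markers behind the names HSC and HPC, and whether each sample was 1 mouse or a pool, were not stated by the labels. All samples of a group name 1 peak list, so each group had 1 list, no spread between replicates could be computed and no test was possible.

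ATAC-seq uses the Tn5 transposase to cut DNA where no nucleosome covers it, and the regions that gather cuts are mostly promoters and enhancers. HSC renew themselves and divide seldom, and progenitors divide often and are closer to mature blood cells. Stem cell genes such as Mecom, Meis1 and Hlf often have many distal enhancers, some of which close as cells mature, and progenitors open enhancers of myeloid and lymphoid genes. 5-fluorouracil kills dividing cells, so it depletes progenitors and drives surviving HSC to divide. By its title, the study concerns Kmt2c mutations and the advantage they give HSC after chemotherapy.

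Overlapping rows of a list were merged into regions, which gave 71363 regions for 5-fluorouracil HSC and 65832 for wild-type HPC, of 358828 regions summed over the 6 lists. The 5-fluorouracil list had 2.046 rows per region, a median width of 640 bp and 49.8 Mb covered, against 1.41 rows, 481 bp and 35.09 Mb in HPC. The highest −log10 p was 8650 against 3581, while the median fold enrichment over local background was 10.4 against 13.7. The vehicle list resembled the 5-fluorouracil list in shape, with 80100 regions, 2.036 rows per region and a median of 635 bp, and the other 3 lists had medians of 462 to 484 bp. Depth is unknown, so the lists were compared as deposited, by rank within each list, and at the 65832 strongest regions of each by −log10 p, here called the equal number. The labels were checked against start sites, where a region within 1 kb counts as an open start. In both lists the starts of Procr, Fgd5, Hlf, Mecom and Kit, genes of HSC and early progenitors, were open, and so were those of the progenitor genes Cebpa, Irf8, Csf1r and Flt3. Of 45 stem cell genes, 35 had a start open in both lists, 9 in 5-fluorouracil HSC only and none in HPC only. Over all genes, 5.11% had a start open in 5-fluorouracil HSC only and 1.27% in HPC only. The granule protein genes Mpo and Elane, and Cebpe, a transcription factor of late granulocyte maturation, had no open start in either list. Of 11 neutrophil markers, 2 had a start open in HPC only (Mmp8 at percentile 7.02 and S100a8 at 34.7) and none in 5-fluorouracil HSC only. Neither of these starts was open in knockout HPC, and that of S100a8 was open in knockout HSC (fold 8.13).

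A region was called strong and specific when it lay in the upper 50% of its own list by −log10 p and the other list had no region within 1 kb. Few of these lay at promoters, and 8 that did are shown because they let the DNA under the 2 kinds of region be read side by side. Each sequence is the 250 bases before the start site, 5′ to 3′ along the gene, from RefSeq on GRCm38.p6. Capitals mark matches on either strand to 5 motifs: TGTGGT of RUNX factors, GAGGAAGT of PU.1, the E-boxes CAGATG and CAGCTG of basic helix-loop-helix factors, and AGATAA of GATA factors. The first 3 were open in 5-fluorouracil HSC and not in HPC. They are Hoxa5, a homeobox factor (chr6:52204588-52204837, minus strand), Sult1a1, a sulfotransferase (chr7:126676419-126676668, minus strand), and Pdk4, a kinase that inhibits pyruvate dehydrogenase (chr6:5496279-5496528, minus strand). The other 5 were open in HPC and not in 5-fluorouracil HSC. They are Cd300c, an activating receptor of myeloid cells (chr11:114960508-114960757, minus strand), Trem1, a receptor of neutrophils and monocytes (chr17:48232489-48232738, plus strand), Ccl3, an inflammatory chemokine (chr11:83649379-83649628, minus strand), Ly6c2, a surface antigen of monocytes (chr15:75111938-75112187, minus strand), and Btla, an inhibitory receptor of lymphocytes (chr16:45224087-45224336, plus strand). The 8 genes were chosen after their values were seen.
Hoxa5: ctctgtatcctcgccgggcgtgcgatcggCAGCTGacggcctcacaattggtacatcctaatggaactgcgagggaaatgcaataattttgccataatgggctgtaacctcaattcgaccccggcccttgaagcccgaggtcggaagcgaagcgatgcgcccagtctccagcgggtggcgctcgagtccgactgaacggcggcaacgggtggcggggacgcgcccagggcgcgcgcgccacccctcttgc
Sult1a1: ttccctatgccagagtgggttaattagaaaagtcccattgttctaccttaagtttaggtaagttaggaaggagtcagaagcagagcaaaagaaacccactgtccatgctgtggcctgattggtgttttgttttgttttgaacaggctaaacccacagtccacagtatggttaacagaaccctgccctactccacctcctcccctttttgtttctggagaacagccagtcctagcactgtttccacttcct
Pdk4: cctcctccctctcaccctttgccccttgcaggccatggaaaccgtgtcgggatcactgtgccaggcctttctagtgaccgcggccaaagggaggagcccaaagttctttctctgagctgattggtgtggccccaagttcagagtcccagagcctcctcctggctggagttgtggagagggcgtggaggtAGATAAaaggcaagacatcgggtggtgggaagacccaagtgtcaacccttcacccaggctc
Cd300c: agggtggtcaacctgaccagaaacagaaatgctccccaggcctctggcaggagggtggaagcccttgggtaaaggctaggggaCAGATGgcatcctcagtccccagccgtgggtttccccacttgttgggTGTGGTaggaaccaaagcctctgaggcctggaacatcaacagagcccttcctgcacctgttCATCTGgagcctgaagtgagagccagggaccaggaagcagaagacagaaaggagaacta
Trem1: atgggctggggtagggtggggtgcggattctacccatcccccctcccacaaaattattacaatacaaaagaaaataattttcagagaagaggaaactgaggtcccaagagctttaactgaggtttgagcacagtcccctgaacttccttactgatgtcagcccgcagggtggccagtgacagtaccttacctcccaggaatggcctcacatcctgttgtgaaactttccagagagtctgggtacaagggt
Ccl3: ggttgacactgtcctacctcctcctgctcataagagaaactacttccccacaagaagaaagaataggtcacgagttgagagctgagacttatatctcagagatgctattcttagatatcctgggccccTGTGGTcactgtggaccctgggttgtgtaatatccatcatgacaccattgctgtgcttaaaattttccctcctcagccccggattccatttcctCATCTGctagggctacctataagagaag
Ly6c2: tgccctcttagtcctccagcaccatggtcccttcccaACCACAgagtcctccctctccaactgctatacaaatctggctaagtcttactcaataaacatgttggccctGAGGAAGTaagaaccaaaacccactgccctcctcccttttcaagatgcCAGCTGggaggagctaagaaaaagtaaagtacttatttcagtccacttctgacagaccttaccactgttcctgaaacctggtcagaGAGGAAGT
Btla: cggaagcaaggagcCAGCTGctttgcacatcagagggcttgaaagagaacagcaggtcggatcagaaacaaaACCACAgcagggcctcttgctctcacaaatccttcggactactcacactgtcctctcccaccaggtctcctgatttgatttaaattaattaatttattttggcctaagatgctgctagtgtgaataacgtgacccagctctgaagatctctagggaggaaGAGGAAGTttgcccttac

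Among these 8, the RUNX letters stood in Cd300c, Ccl3, Ly6c2 and Btla and in none of the 3 promoters open in 5-fluorouracil HSC. The PU.1 letters occurred 2 times in Ly6c2 and 1 time in Btla. Trem1 and Sult1a1 held none of the 5 motifs, and Pdk4 held 1 GATA match. The Hoxa5 promoter had 28 CpG and 63.6% GC, whereas Sult1a1 and Ly6c2 had 0 CpG. Over all such windows, 23 overlapped a strong specific HPC region and 120 a strong specific 5-fluorouracil region, with some genes giving more than 1 window. The RUNX letters were in 47.8% of the 23 HPC windows (95% Wilson interval 29.2 to 67), in 7.5% of the 120 (4 to 13.6) and in 12.4% of all 21263 windows. CAGATG was in 39.1% (22.2 to 59.2), 7.5% (4 to 13.6) and 12.4% of them. Over all 180 windows that overlapped HPC regions only, strong or not, the shares were lower, at 18.9% for the RUNX letters (13.8 to 25.2) and 18.3% for CAGATG (13.4 to 24.6), near the 15.6% and 17% of windows open in neither list. The PU.1 letters were in 17.4% (6.98 to 37.1), 2.5% (0.854 to 7.09) and 2.23%, and in 7.22% (4.27 to 12) of the 180. GGGCGG, the GC box of housekeeping promoters, went the other way, at 17.4% (6.98 to 37.1) against 44.2% (35.6 to 53.1), with 42.6% over all windows. The median window had 2 CpG in the HPC set and 10 in the 5-fluorouracil set, against 17 in windows open in both lists. The part of base composition in these shares was not tested. A match is a run of letters and not a bound site.

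As deposited, 19996 of the 5-fluorouracil regions (28.0%; 95% Wilson interval 27.7 to 28.4) overlapped no HPC region by 1 bp, and 12476 HPC regions (19.0%; 18.7 to 19.3) overlapped no 5-fluorouracil region. These intervals, and those below, treat regions as independent and cover counting error only. At the equal number the shares were closer, at 16018 regions (24.3%) and 14022 regions (21.3%). The part of list size in the difference in counts was not tested. The 5-fluorouracil regions remained wider at the equal number, with 47.65 Mb against 35.09 Mb. With equal covered length instead, which keeps 42117 regions of 5-fluorouracil HSC and all 65832 of HPC, 4380 and 26206 regions were in 1 list only, so which side had more is set by how the lists are matched.

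Regions in 1 list only were weak ones. Their median strength percentile by −log10 p was 21.9 in 5-fluorouracil HSC and 22.4 in HPC, against 62.3 and 57.2 for shared regions. With each list cut into 10 classes of strength, 29.8% of the weakest class of 5-fluorouracil regions were also in HPC, and 99.1% of the strongest class were. In HPC the shares were 50.5% and 98.9%.

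**Figure D1:**
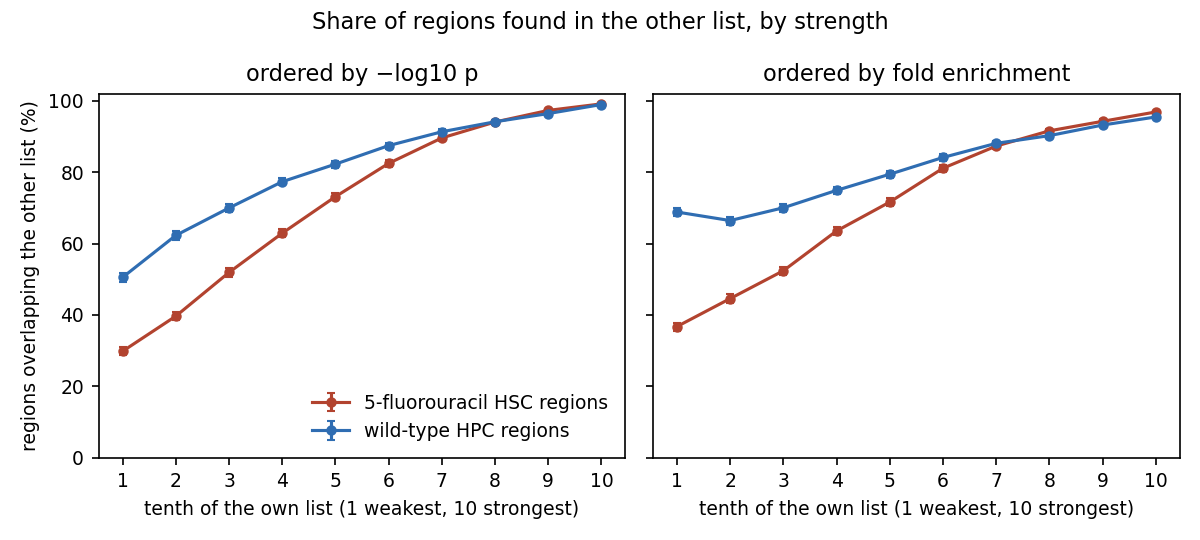
Share of regions that overlap the other list (y, %) by class of strength in the own list (x, 10 classes from weakest to strongest), ordered by −log10 p (left) and fold enrichment (right), with 95% Wilson intervals. Both lists climb to about the same share, 99.1% and 98.9% in the strongest class by −log10 p, and the weakest 5-fluorouracil regions are found least often.

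Strong specific regions numbered 2397 in 5-fluorouracil HSC (3.36% of the list) and 1894 in HPC (2.88%). The median fold enrichment of the 5-fluorouracil set was 15.1. Only 6.59% of the 5-fluorouracil set (5.67 to 7.66) and 2.64% of the HPC set (2.01 to 3.46) lay within 1 kb of a gene start, against 25.02% and 25.7% of shared regions. In the 5-fluorouracil set 50.4% lay inside a gene away from its start and 43.0% outside genes. In the HPC set these were 48.2% and 49.2%. Shares with no gene within 100 kb were 12.4% and 11.9%, against 5.26% and 5.17% of shared regions.

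The 4 lists that took no part in the definition place these regions. Of the strong specific 5-fluorouracil regions, 99.7% were in the vehicle list, so all but 8 were also open in HSC of the same age without the drug. Of all 5-fluorouracil regions in the upper 50%, specific or not, 99.94% were there, so this share does not set the specific set apart. Their median percentile there was 65.3 (quartiles 56.8 and 73.8), against 61.3 in their own list. Wild-type HSC of 8 weeks held 58.4% of them, knockout HSC 73.8% and knockout HPC 14.98%, against 87.7%, 93.2% and 86.5% of all regions in the upper 50%. Of the strong specific HPC regions, 95.5% were in knockout HPC, 35.6% in vehicle HSC, 19.7% in knockout HSC and 10.03% in wild-type HSC. Of all HPC regions in the upper 50%, the shares in the same order were 98.04%, 95.11%, 87.2% and 81.37%. Where vehicle HSC did hold an HPC region it was a weak one there, with a median percentile of 19.6, and 1.11% of the HPC set reached the upper 50% of the vehicle list. Lists differ in length, and the 8-week HSC lists are the shortest, and the part of list length in these shares was not tested.

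**Figure D2:**
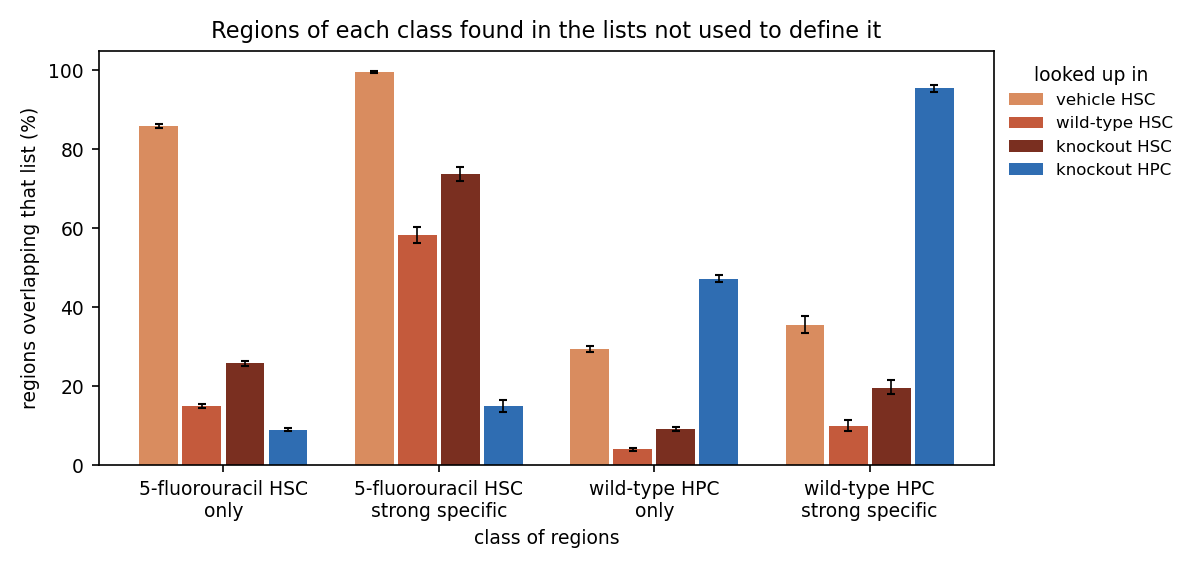
Share of regions of 4 classes (x) that overlap each of the 4 lists not used to define them (y, %; bars with 95% Wilson intervals). The 5-fluorouracil classes are found most in vehicle HSC (86.0% and 99.7%), and the HPC classes most in knockout HPC (47.3% and 95.5%).

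By pattern, 1022 of the 2397 strong 5-fluorouracil regions (42.6%) were in all 3 other HSC lists and not in knockout HPC, and 1033 of the 1894 strong HPC regions (54.5%) were in knockout HPC and in no HSC list. A further 16.3% of the 5-fluorouracil set were in vehicle HSC alone. Of the HPC set, 19.3% were in vehicle HSC and knockout HPC but in neither HSC list of 8 weeks, as against 2.04% of the 5-fluorouracil set. In knockout HPC at all were 95.5% of the HPC set and 14.98% of the 5-fluorouracil set. These patterns were not counted over all regions of like strength, and both sets were chosen for absence from the other compared list. The 8 regions missing from vehicle HSC lay near Scp2, Slc25a40, Fam126a, Cped1, Lgmn, Kctd1 and Gldc, with 1 near no gene. By −log10 p the strongest of these 8 had a percentile of 86 (Kctd1, fold enrichment 18.6) and was also in all 3 other lists. These 8 were picked out after their values were seen.

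At the same number of regions the drug-treated and vehicle HSC lists stood equally far from HPC. Of the HPC regions, 78.7% were found in 5-fluorouracil HSC (78.4 to 79.0) and 79.0% in vehicle HSC (78.7 to 79.4). At the 40000 strongest regions of each list the shares were 76.7% and 76.7%, with 75.8% in wild-type HSC, 77.4% in knockout HSC and 89.2% in knockout HPC. At 20000 they were 71.5% and 71.5%, with 74.8%, 75.04% and 89.5%. The gap of −0.34 percentage points between 5-fluorouracil and vehicle at the largest number changed sign with the matching, to 0.6 when regions were taken by fold enrichment and 1.65 at equal covered length. These comparisons share the HPC list.

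The strong specific regions of highest fold enrichment were named by their nearest gene within 100 kb, and regions with no such gene, 3 of the first 10 in 5-fluorouracil HSC and 2 in HPC, were passed over. The first 5-fluorouracil region lay 70035 bp from Gm15501 (chr7:93254211-93254871, fold 35.3) and was in all 4 other lists, although HPC had none within 1 kb. The others were inside Anapc1, a subunit of the ubiquitin ligase that ends mitosis (chr2:128680536-128681120, fold 34.3), inside Fstl5 (fold 30.3), inside Pfkfb2, which sets the level of a glycolysis activator (chr1:130727995-130728626, fold 29.9), and inside Exoc6b, Nup107, Ankrd31 and Kcng3 or within 100 kb of Kif18a and Jag1, a Notch ligand (folds 28.9 to 29.8). All 10 were in vehicle and knockout HSC, 9 were in wild-type HSC (not the one by Jag1), and 9 were absent from knockout HPC. The first HPC region, rank 1 of all HPC regions, lay inside Zfp804b (chr5:7277155-7277375, fold 48.4). It was present in the other 3 lists of 8 weeks and missing from the 2 lists of 16 weeks. Further HPC regions lay inside Trim36 (fold 41), Dnah7a (39.4), Nme7 (38.2), Klrd1, an NK cell receptor (36.5), Lrguk (35.8) and Ntrk3 (35.6), at the start of Gm3636 (37.9), and near Aldh1a3, a retinoic acid synthase (37), and Vmn2r26 (36.6). Of these 10, 9 were in knockout HPC and 6 were in no HSC list.

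Most regions were shared, and their order of strength was alike in both lists. Over the 49814 shared regions at the equal number, Spearman's rho of the strength percentiles was 0.702 by −log10 p and 0.716 by fold enrichment, which describes regions within 2 lists and has no test. The median absolute difference was 11.8 percentile points. A difference above 50 points was seen in 682 regions higher in 5-fluorouracil HSC (1.37%) and 1138 higher in HPC (2.28%). Of these, 12.2% and 5.27% lay at a gene start, against 25.6% of all shared regions. Ranks of such lists do not measure a change, so the following values describe position only. The region at Rnase6, a ribonuclease of macrophages, stood at percentile 91.5 in 5-fluorouracil HSC and 2.38 in HPC (fold 17.9 and 3.86). Near Dppa4 the percentiles were 90.3 and 2.77, and inside Glp2r 87.2 and 0.2. Of the 5 regions that differed most on this side, the other 2 had no gene within 100 kb. In vehicle HSC these 3 genes stood at 88.1, 91.4 and 95.1. In the other direction, the region inside Inpp5d, the phosphatase SHIP1 that restrains PI3 kinase signalling in blood cells, stood at 8.32 in 5-fluorouracil HSC and 96.4 in HPC (fold 4.03 and 19.1). Near Aqp3 the percentiles were 2.08 and 95.6, inside Gfod1 0.545 and 92.3, inside Tcerg1l 6.92 and 97.5 and near Crybg2 2.61 and 92.7. Knockout HPC had all 5 between 84.5 and 96.5, and vehicle HSC had 4 of them between 19.7 and 25.3 and Tcerg1l at 76.1.

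Regions at gene starts were a smaller part of the regions in 1 list only than of shared regions. In 5-fluorouracil HSC they were 9.91% against 25.02%, and in HPC 4.25% against 25.7%. Of 21887 protein-coding genes, 12796 (58.5%) had an open start in both lists, 1118 (5.11%) in 5-fluorouracil HSC only, 278 (1.27%) in HPC only and 7695 in neither. These counts of genes used the lists as deposited, where 5-fluorouracil regions are more numerous and wider, and were not repeated at the equal number. Of the 1118 the start region was in the vehicle list for 95% and in wild-type HSC for 21.3%. Of the 278 it was in vehicle HSC for 52.5% and in knockout HPC for 46.4%. Of all 5-fluorouracil regions, at starts or not, 94.39% were in vehicle HSC and 53.39% in wild-type HSC. Of all HPC regions, 84.76% were in vehicle HSC and 74.14% in knockout HPC. The lists differ in length, and shares over all open starts are not given. The 10 strongest starts of 5-fluorouracil HSC (Arhgap21, Plcd3, Slc6a15, Kdm6b, Utrn, St14, Kansl1l, Ier3, H3c10 and Ebf2, percentiles 90.6 to 98.8) were in all 4 other lists, and at each HPC had a region within 1 kb of the 5-fluorouracil region. None of the 10 was therefore specific. In HPC, 9 of the 10 strongest were specific. They were Zfp932, Cd300c, Trem1, Prss43, Tmem30c, Ccl3, Dohh, which completes the hypusine residue of translation factor eIF5A, Cd6, a T cell surface protein, and Gm3636, with percentiles 79.8 to 90.6. Ggt1 was the exception.

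Strong specific regions marked 136 of the 1118 starts open only in 5-fluorouracil HSC and 56 of the 278 open only in HPC. Genes can share a region. The 56 include a run of Pcdhga and Pcdhgb genes that share 1 region (chr18:37841401-37841768, percentile 51.7), so they rest on fewer regions. Of the genes on the gene lists, 8 were in the 5-fluorouracil set. They were Hoxa5 (fold 9.62), Hoxa9 (3.99) and Hoxb5 (6.02), homeobox factors of HSC, Vwf (9.64), the clotting factor made by platelet-biased HSC, Rarb (12.4), a retinoic acid receptor, Sult1a1 (15.3), Pdk4 (20) and Ifit3 (15.8), an interferon response gene. All 8 were in vehicle HSC, 6 were in wild-type HSC (not Hoxb5 or Ifit3) and only Rarb was in knockout HPC. Over all strong specific 5-fluorouracil regions the shares in these lists were 99.7%, 58.4% and 14.98%. The 4 in HPC were Ccl3 (fold 16.4), Ly6c2 (19.7), Btla (15.8) and Adgre1 (27.5), the macrophage antigen F4/80. All 4 were in knockout HPC and none was in wild-type HSC (95.5% and 10.03% of all strong specific HPC regions). Nlrp3 (fold 16.8), the inflammasome sensor, Trem1 (18.4) and Cd300c (19.6) belonged to no list. Hoxb5, Vwf and Adgre1 have no start in the promoter table, so either gene end counted.

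Each region was assigned to the nearest gene body within 100 kb, which does not show the gene it acts on. A strong specific region of 5-fluorouracil HSC lay near 1755 genes (8.02%) and one of HPC near 1412 (6.45%). Ranked by net number of strong specific regions, the first 10 genes on the 5-fluorouracil side included Thsd4 and Cntnap2 (6 each), Palld, Nav2 and Lsamp (5 each), Foxp1 (5 against 1 in HPC), and Klrb1c, Tgfbr3 and Sgms1 (4 each). Klrb1c is the gene of NK1.1, Tgfbr3 is betaglycan, a co-receptor for TGF-beta, and Foxp1 is a transcription factor of blood cells. The median length of the 10 was 473 kb against 17.2 kb over all genes, so long genes lead the list. In HPC they were Sorl1 (5), Foxf1, Tox3, Rab11fip4 and Lef1 (4 each), and Ackr3, Npc2, Marco, Zfp366 and Elovl5 (3 each), with a median length of 64.7 kb. Ackr3 is a scavenger receptor for Cxcl12, Marco a scavenger receptor of macrophages, and Lef1 a factor of Wnt signalling and lymphocytes. Sorl1 had 6 regions in 5-fluorouracil HSC, 7 in vehicle HSC, 5 in wild-type HSC and 7 in knockout HSC, but 15 in each HPC list. Tox3 had none in 5-fluorouracil HSC and 5 in HPC. At the equal number, Thsd4 had 16 regions in 5-fluorouracil HSC only, 5 shared and 3 in HPC only. Nav2 had 9 in 5-fluorouracil HSC only and 11 in HPC only, so by that count it lay on the HPC side.

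At the equal number, 4974 genes (22.7%) had more 5-fluorouracil-only than HPC-only regions nearby and 4071 (18.6%) had fewer. Of the regions in 1 list only that had a gene, 53.5% were 5-fluorouracil regions. Of 45 stem cell genes, 30 had more 5-fluorouracil-only regions, 2 had more HPC-only regions and 13 had as many of each. Near them, 164 regions were in 5-fluorouracil HSC only and 59 in HPC only, so 73.5% (67.4 to 78.9) were 5-fluorouracil regions. The same genes gave 23 and 6 in vehicle HSC against HPC, with 67.7% vehicle regions. The shares were 64.7% near these genes and 52.9% over all genes when regions were taken by fold enrichment, and 27% and 14% at equal covered length. These counts describe the list without a test. At gene starts, 35 of the 45 were open in both lists, 9 in 5-fluorouracil HSC only, none in HPC only and 1 in neither. The 9 were Esam, Vwf, Sult1a1, Hoxa9, Hoxa5, Fli1, Hoxb5, Tek and Rarb.

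Mecom, a zinc finger factor that HSC need for self-renewal, had 21 regions in 5-fluorouracil HSC only, 16 shared and 2 in HPC only at the equal number. As deposited it had 41 regions in 5-fluorouracil HSC and 49 in vehicle HSC, the 2 lists of 16 weeks. The 8-week lists had 16 (wild-type HSC), 21 (knockout HSC), 19 (wild-type HPC) and 18 (knockout HPC). These lists differ in length. The strong specific 5-fluorouracil regions at chr3:30246004-30247554 and chr3:30416467-30417217 inside Mecom were in both 8-week HSC lists and in neither HPC list. The other such region, at chr3:30239346-30239834 (fold 14.4, percentile 53), was in vehicle HSC and in no 8-week list. Mllt3, which keeps active transcription marks in HSC, had 14 and 5 regions in 1 list only, and Prdm16, a histone methyltransferase of HSC, 8 and 1. Meis1, a homeobox factor, had 7 in 5-fluorouracil HSC only and 1 in HPC only, with 25 regions in all in 5-fluorouracil HSC, 30 in vehicle HSC, 11 to 13 in 8-week HSC and 12 to 15 in HPC. Hlf, a bZIP factor that marks HSC, had 4 and 1, the receptor gene Kit 5 and 3, and Gata2 3 and 1. At equal covered length the net number turned to the HPC side for Mllt3 (−4), Prdm16 (−2), Meis1 (−1), Hlf (−5) and Kit (−3), was 0 for Gata2 and remained on the 5-fluorouracil side for Mecom (4). Procr, Fgd5 and Bmi1 had none on either side, and their regions at that number were shared. Thy1, with 2, and Cdkn1c, a cell cycle inhibitor of quiescent HSC, with 1, had HPC-only regions and no 5-fluorouracil-only ones.

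**Figure D3:**
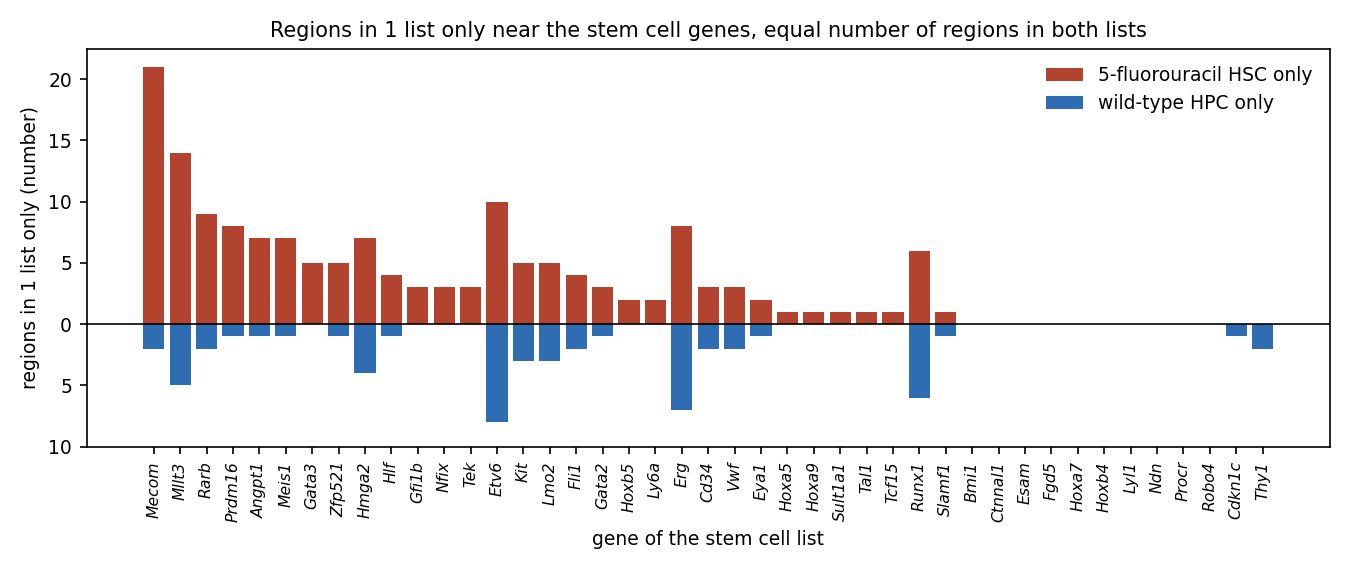
Number of regions in 1 list only near 43 of the 45 stem cell genes at the equal number of regions, 5-fluorouracil HSC above the line and wild-type HPC below it. Mecom (21 and 2) and Mllt3 (14 and 5) lead, and Thy1 and Cdkn1c stand at the other end; at equal covered length the net number of Mllt3 is −4.

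The stem cell genes held 29 strong specific 5-fluorouracil regions and 11 of HPC, against 2100 and 1668 over all genes. Of the 29, all were in vehicle HSC, 20 in wild-type HSC, 23 in knockout HSC and 5 in knockout HPC. In the same order, the shares of all strong specific 5-fluorouracil regions were 99.7%, 58.4%, 73.8% and 14.98%. Of the 29, one lay 63604 bp from Lmo2, the bridging factor of the Tal1 complex (chr2:103893711-103894299, fold 16.2, percentile 88.5), a gene that also had 2 strong specific HPC regions, 1 inside it and 1 at 16300 bp. Another lay inside Slamf1, the CD150 gene used to sort HSC (chr1:171772788-171773813, fold 16.1, percentile 79.7). Both were in every HSC list and not in knockout HPC. Of the 11 HPC regions, 10 were in knockout HPC and 2 in vehicle HSC (95.5% and 35.6% of all such HPC regions). They included 3 inside Erg (folds 7.56 to 11.2) and 2 assigned to Vwf (folds 20.4 and 26.9), genes that also had a strong specific 5-fluorouracil region.

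**Figure D4:**
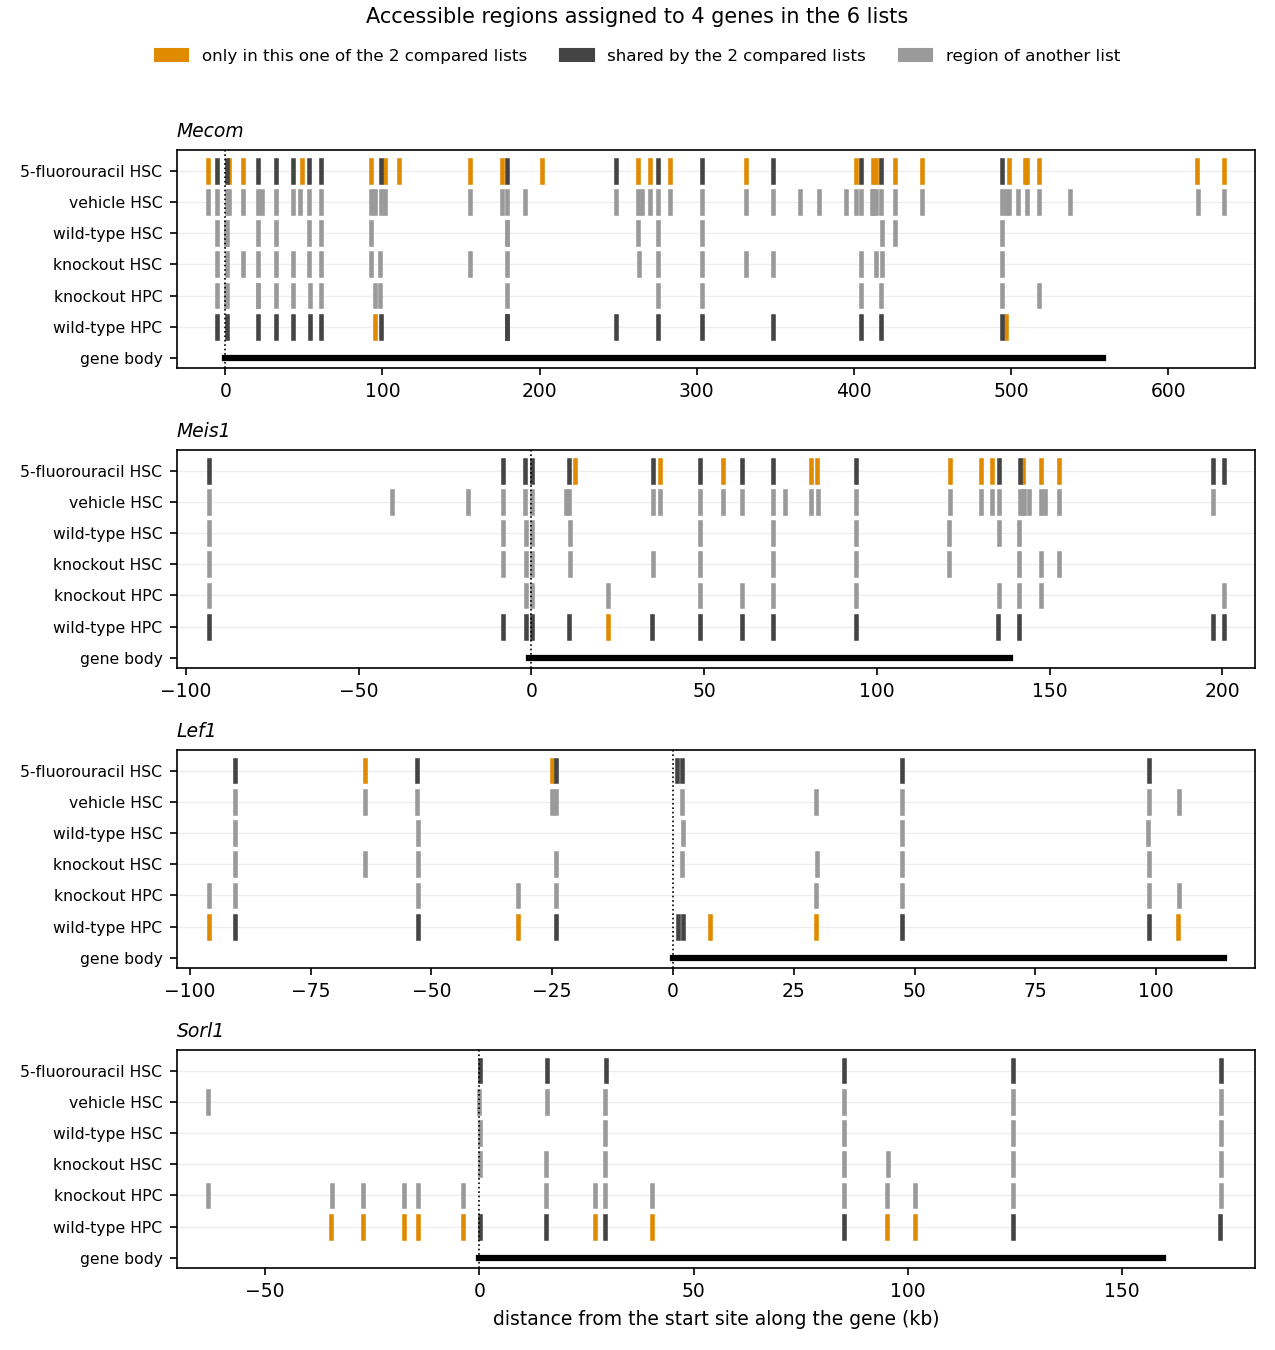
Accessible regions assigned to Mecom, Meis1, Lef1 and Sorl1 in all 6 lists, drawn at their distance from the start site along the gene (x, kb) with 1 row per list and the gene body at the bottom; orange marks regions in only 1 of the 2 compared lists. Of the 25 orange 5-fluorouracil regions at Mecom, 21 overlap a vehicle HSC region, and all 9 orange HPC regions at Sorl1 overlap one of knockout HPC. Over all regions in 1 list only these shares are 86.0% and 47.3%.

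Receptors and adhesion genes that tie HSC to the marrow split by gene. Of 24, 15 had more 5-fluorouracil-only and 5 more HPC-only regions, with 64 and 32 regions in all, and 66.7% of these (56.8 to 75.3) were 5-fluorouracil regions, against 57.1% vehicle regions when vehicle HSC was set against the same HPC list. Itga6, the integrin alpha 6 gene, and Robo1 had 7 and 0 regions, Smad3, which carries TGF-beta signals, 7 and 2, Bmpr2, a BMP receptor, 5 and 0, and Tgfbr3 6 and 3. On the HPC side were Ackr3 (0 and 6), Cxcr4, the receptor that holds HSC in the marrow (1 and 5), Tgfbr2 (4 and 7) and Selplg, the selectin ligand (0 and 2). At equal covered length the net number turned to the HPC side for Smad3 (−6), Tgfbr3 (−2) and Robo1 (−1), was 0 for Bmpr2 and stayed on the 5-fluorouracil side for Itga6 (3). Strong specific regions near these 24 genes were nearly even, at 11 of 5-fluorouracil HSC and 10 of HPC, against 2100 and 1668 over all genes. Of the 4 strong specific 5-fluorouracil regions at Tgfbr3, the strongest (chr5:107236640-107237633, fold 18.4, percentile 93.1) was in all HSC lists and not in knockout HPC. The HPC regions at Tgfbr2 included one of percentile 88.1 (chr9:116270248-116270763, fold 22.5), which lay 94885 bp from the gene and was in vehicle HSC and knockout HPC.

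Of 24 lymphoid priming genes, 6 had more 5-fluorouracil-only and 10 more HPC-only regions, with 34 and 40 regions, and 45.9% (35.1 to 57.2) were 5-fluorouracil regions, an interval that holds the 53.5% of all genes. With vehicle HSC in place of 5-fluorouracil HSC the share was 36.8%. Ebf1, the factor that starts the B lineage, had 1 and 7, Btla 0 and 3, Notch1 0 and 3, and Lef1 2 and 5. Mef2c (10 and 1) and Ikzf2 (4 and 0) lay on the other side, where at equal covered length their net numbers were 0 and −1. There were 3 strong specific 5-fluorouracil regions and 10 of HPC, against 2100 and 1668 over all genes. All 10 were in knockout HPC, 5 in vehicle HSC and none in wild-type HSC (95.5%, 35.6% and 10.03% of all such HPC regions). One lay inside Dntt, the polymerase that adds bases at antigen receptor joints (chr19:41039085-41039582, fold 17.2, percentile 86.8), and 2 inside Ebf1, the stronger at percentile 84.6 (chr11:44881116-44881748, fold 21.8). Ebf1 also held 1 strong specific 5-fluorouracil region (chr11:44897040-44897906, fold 20.6, percentile 79.5), which was in every HSC list and not in knockout HPC. The start of Il7r, the interleukin-7 receptor gene, was open in both lists, with a fold of 7.15 in 5-fluorouracil HSC (percentile 20.6) and 25.2 in HPC (percentile 75.1).

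Myeloid genes were even. Of 27 granulocyte and monocyte genes, 10 had more 5-fluorouracil-only and 9 more HPC-only regions (24 and 26 regions; 48%, 34.8 to 61.5). Irf8, a factor of monocytes and dendritic cells, had 1 and 4, Itgam, the CD11b gene, 0 and 3, and Ctsg and Ly6c2 0 and 2. Cebpb had 5 and 2 and Spi1, the PU.1 gene, 2 and 0, with net numbers of −2 and 0 at equal covered length. Erythroid genes gave 8 and 2 of 24 (68.2% 5-fluorouracil regions, 53.4 to 80), led by Zfpm1, the GATA partner FOG1 (7 and 3), and Bcl11a (6 and 3), whose net numbers were −1 and −3 at equal covered length. Gata1 had 3 regions in 5-fluorouracil HSC, 2 in vehicle HSC and 1 in knockout HSC, and none in wild-type HSC or either HPC list. Megakaryocyte genes gave 6 and 3 of 18 (63.6%, 46.6 to 77.8), with Mmrn1 at 4 and 0 and Cd9 at 3 and 0 (net 1 and −4 at equal covered length).

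The intervals of the remaining lists held the 53.5% of all genes, several because few regions were counted. Chromatin regulators had 15 and 10 of 30 genes (60.4% 5-fluorouracil regions, 51.1 to 69), led by Hdac9, a histone deacetylase (15 and 2), and Arid1b, a SWI/SNF subunit (17 and 12). Fluoropyrimidine metabolism and drug efflux had 9 and 5 of 24 (66.7%, 51 to 79.4), with the exporters Abcc4 at 6 and 2 and Abcg2 at 4 and 1. Genes of p53 and apoptosis had 12 and 7 of 28 (52.9%), where Bcl2, which blocks apoptosis, had 7 and 4 and Pmaip1, the Noxa gene, 0 and 3. Cell cycle genes had 9 and 7 of 38 (52.2%), with Ccnd1, the cyclin D1 gene, at 1 and 7 and E2f7, a repressor of the cycle, at 4 and 0. Interleukin-1, TNF and NF-kB genes had 11 and 6 of 30 (57.5%), with Tnfaip3, which restrains NF-kB, at 5 and 1 and Il1rl1, the interleukin-33 receptor, at 0 and 6. Interferon and antigen presentation genes had 9 and 8 of 27 (50%), AP-1 and immediate early factors 9 and 7 of 24 (56.6%), and Foxo, stress defence and glycolysis genes 8 and 7 of 26 (46.9%), where Vegfa had 3 and 9. Housekeeping genes had 4 and 1 of 15 (71.4%, 45.4 to 88.3), a share near that of the stem cell list that rests on 10 and 4 regions. At equal covered length the net number turned to the HPC side for Arid1b (−18), Abcc4 (−4), Abcg2 (−2) and Bcl2 (−4).

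**Figure D5:**
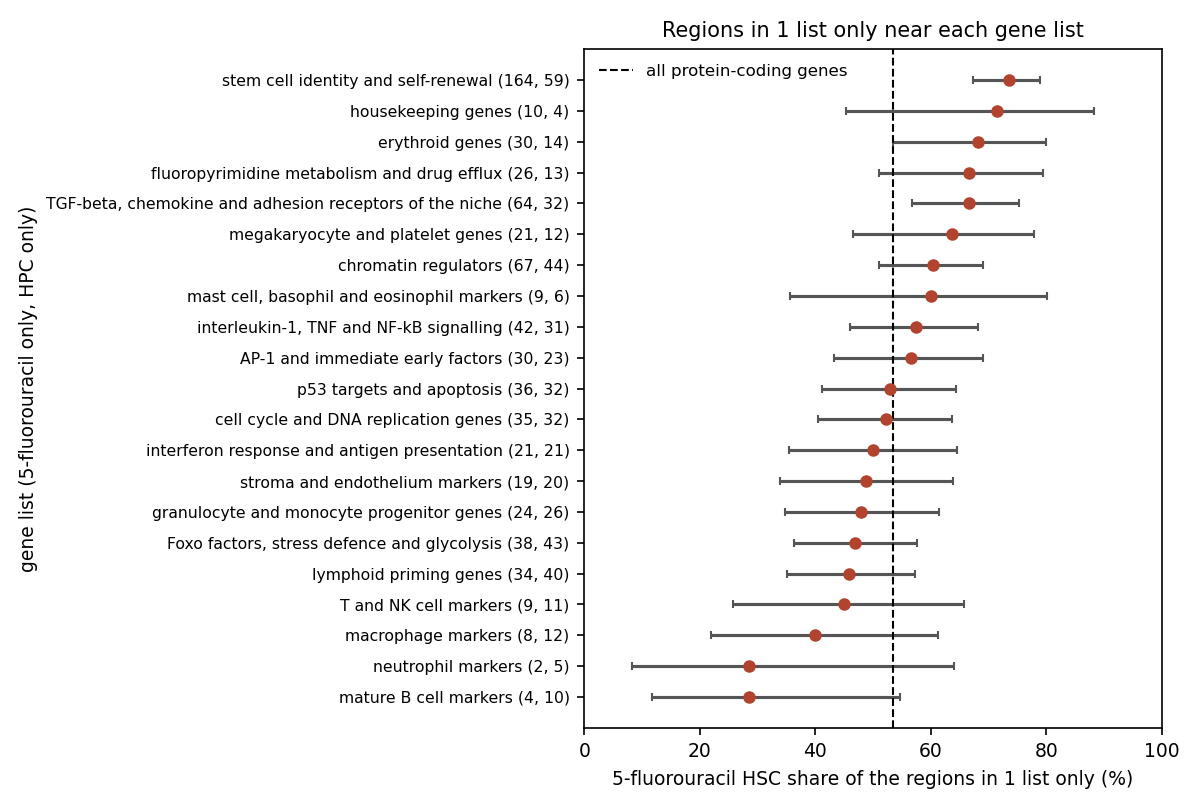
Share of 5-fluorouracil HSC regions among the regions in 1 list only near each gene list (x, %, with 95% Wilson intervals), at the equal number, with both counts in brackets and a dashed line at 53.5% for all protein-coding genes. The stem cell list (73.5%) and the niche receptors (66.7%) lie to the right with intervals clear of the line.

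Markers of cells that a sort could carry over were given for the whole lists. Macrophage markers had 4 and 3 of 12 genes, with 8 regions in 5-fluorouracil HSC only and 12 in HPC only. Strong specific regions numbered 0 and 5, against 2100 and 1668 over all genes. The 5 included 3 near Marco, 1 at the start of Adgre1 and 1 inside Mertk. All 5 were in knockout HPC, as were 95.5% of all strong specific HPC regions. Marco had 0 and 8 regions in 1 list only. Mature B cell markers had 1 and 5 of 9 genes (4 and 10 regions), T and NK cell markers 2 and 6 of 12 (9 and 11), where Klrb1c had 5 and 0, neutrophil markers 2 and 4 of 11 (2 and 5), mast cell, basophil and eosinophil markers 4 and 5 of 11 (9 and 6), and stroma and endothelium markers 4 and 6 of 12 (19 and 20). Open starts in both lists were counted at 3 of 11 neutrophil, 3 of 12 macrophage, 4 of 9 B cell and 3 of 12 T and NK cell markers. The counts were 2 of 11 for mast cell and 6 of 12 for stroma and endothelium markers, against 58.5% of all genes. The part of such cells in the HPC-only regions was not tested. In bulk samples a region open in few cells and one open weakly in all cells cannot be told apart.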

How the data were processed

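ATAC-seq was measured in 18 samples, of which 8 are compared here, and each group had 1 peak list, so no spread between samples was available. Per the submitters' processing notes, Bowtie2, MACS2 and the mouse build mm10, also named GRCm38, were used, without versions. RNA is named as the molecule in the labels although the assay reads DNA, and this was not resolved. The authors deposited, for each row, an interval and values of their peak caller. The deposited fold enrichment is a ratio over local background, the deposited −log10 p grows with depth (no row lay below 2.001), the deposited −log10 q was not used, the deposited score was not used, and the deposited summit offset, in bp, served for 1 alternative. How the samples of a group were pooled before peak calling is not stated. Depth is unknown.

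Rows overlapping by 1 bp were merged within each list (Python 3.11.15, pandas 2.3.3, numpy 2.4.6). Overlap was 1 bp. Percentiles order regions within their own list. Intervals are 95% Wilson intervals (scipy 1.17.1). Interval functions passed 11 of 11 tests on simulated data. Genes and promoter windows were those of RefSeq on GRCm38.p6, and starts were known for 79.92% of 21887 protein-coding genes. For the others both gene ends counted. Of 473 list genes 2 had no match. No list of artifact-prone regions was used. Motifs (14, both strands) were sought in the 250 bases before each start. A window of 250 bases before to 50 after decided which list opened it. No test was made, because 1 list per group leaves no error.

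Named genes followed a rule. It took, for each side, 10 genes by net number of strong specific regions, the genes nearest to the 10 such regions of highest fold enrichment, up to 4 members of each gene list by net number of regions in 1 list only, the 10 strongest starts open in 1 list, the genes of the 5 shared regions whose percentiles differed most, and a panel of lineage genes. Chromosome Y was left out. The text gives part of them, and some items are not reported here. Members, gene lists and the rule were chosen with earlier results of these data known. Alternatives changed overlap, distance, thresholds, strength measure, gene assignment, region definition and the matching of list sizes.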

Additional observations from a re-analysis of the deposited data

How the results depend on the processing

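No paired analysis was possible because each group had 1 list and no value per sample, and for the same reason no replicate could be left out. Counts of regions in 1 list only stayed within 1.5 times of the reported ones under 50% overlap, 1 kb distance, removal of the weakest 25% and autosomes alone. With the weakest 50% removed they were 10369 and 7186 as deposited and 8491 and 8076 at the equal number (5-fluorouracil HSC first). With 200 bp windows around summits they were 62756 as deposited in 5-fluorouracil HSC, and 24184 and 24887 at the equal number. Both alternatives change the number of regions in each list, so these counts cannot be read as shares of the reported lists. At equal covered length they were 4380 and 26206, where more genes had HPC-only regions (8946 against 945). Strong specific HPC regions numbered 3115 by fold enrichment and 1243 with 5 kb distance, and at the upper 25% there were 397 and 432. The share of regions in 1 list only found in knockout HSC minus that in knockout HPC was 16.8 points for 5-fluorouracil HSC and −38.1 for HPC. For 5-fluorouracil HSC it was 18.4 at 1 kb distance, 20.9 and 21.9 with the weakest 25% and 50% removed and 8.85 with summit windows. For HPC it was −48.2, −50.7 and −33.4 in the last 3. The gap between 5-fluorouracil and vehicle HSC changed sign, to 0.6 by fold enrichment and 1.65 at equal covered length. The stem cell list exceeded all genes by 20 points, by 11.7 by fold enrichment and by 13 at equal covered length, and the niche and lymphoid lists kept their direction under all 6 alternatives.

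Lists near the share of all genes crossed it, in points. With the nearest gene end, cell cycle came to 0.427 and chromatin regulators to −0.407. With genes within 10 kb, cell cycle came to 10.7, p53 to 1.52, interleukin-1 to −0.831 and mast cells to −9.54. With the weakest 25% removed, interferon came to 5.43, AP-1 to −0.461, Foxo to 3.31 and stroma to 5.87. By fold enrichment, interleukin-1 came to −8.34 and AP-1 to −11. At equal covered length, interferon came to 2.3, T and NK cells to 7.76 and stroma to 6.48. Of 61 named genes, the net number of regions in 1 list only changed sign for 19 at equal covered length, to −1 for Meis1, Robo1, Ikzf2 and Zfpm1, −2 for Prdm16, Tgfbr3, Cebpb and Abcg2, −3 for Kit and Bcl11a, −4 for Mllt3, Cd9, Abcc4 and Bcl2, −5 for Hlf, −6 for Smad3, −8 for Sgms1, −17 for Foxp1 and −18 for Arid1b. With the weakest 25% removed it was −1 for Ikzf2 and Arid1b, and by fold enrichment −1 for Gata2 and Zfpm1. The cause was not tested. Depth is unknown, so weak regions missing from a list may lie under its threshold.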

Other observations

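The X chromosome stood apart in the 5-fluorouracil list. Of its 1552 regions there, 38.5% were absent from HPC, against 28.0% over all chromosomes, and 14.9% of the 1172 HPC regions on X were absent from 5-fluorouracil HSC, against 19.0%. Regions on X made up 2.17% of the 5-fluorouracil list (2.07 to 2.28) and 2.19% of the vehicle list (2.09 to 2.29). They made up 1.78% of the wild-type HPC list, 1.7% of knockout HPC, 1.85% of knockout HSC and 1.79% of wild-type HSC. The 2 lists of 16 weeks thus held a larger share of X regions than the 4 lists of 8 weeks. List length, age and any other difference between these groups cannot be told apart there. Autosomes alone left every count of regions in 1 list only within 1.5 times of the reported value.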
